A study of Homo sapiens with 6 samples.

Results

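Binding of PLAG1-S and USF2 was examined at 8 genes that write, maintain or remove DNA methylation: DNMT3A, DNMT3B, DNMT3L, DNMT1, UHRF1, TET1, TET2 and TET3. The ChIP-seq libraries came from clones #4 and #5 of K562, a leukemia cell line, both of which overexpressed FLAG-tagged PLAG1-S together with USF2. PLAG1-S is a short isoform of the zinc finger transcription factor PLAG1, and USF2 is a basic helix-loop-helix factor that binds E-boxes. Each clone gave 1 anti-FLAG library and 1 anti-USF2 library, against which the inputs of both clones, merged, served as control. No library came from cells without the overexpressed factors, each clone is a single derived line, and endogenous PLAG1 carries no FLAG tag, so the values describe binding in these cells with both factors raised. A peak was assigned to a gene when it lay inside or within 3 kb of the gene body (RefSeq, GRCh38.p14). By this rule the 8 genes, of 20037 protein-coding genes, held 27 of 37574 PLAG1-S peaks in clone 4, 24 of 29889 in clone 5, 8 of 9338 USF2 peaks in clone 4 and 4 of 4369 in clone 5.

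DNA methylation in mammals is set by DNMT3A and DNMT3B, which methylate unmodified CpGs, with DNMT3L as a partner that has no catalytic activity of its own. DNMT1 copies the pattern at replication, guided by UHRF1, which recognizes hemimethylated CpGs. The TET dioxygenases oxidize 5-methylcytosine as the first step of its removal, and in blood DNMT3A and TET2 are known as genes that are often mutated in clonal expansions and leukemia.

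PLAG1-S and USF2 were both found, in both clones, at an internal start of DNMT3A and at the first listed start of TET3, and the 250 bases before these starts are shown because both hold the E-box of USF2. The stretch before the first listed start of TET2, at which neither factor had a peak, is shown beside them because it holds the same hexamer. Capitals mark CACGTG, the E-box, which reads the same on both strands, and the bipartite PLAG1 motif, a core of GGGGC or GAGGC followed 6 to 8 bases later by GGG, searched on both strands. The sequences are from RefSeq (GRCh38.p14), written 5′ to 3′ along the gene: DNMT3A is chr2:25252316-25252565 on the minus strand, TET3 is chr2:73984660-73984909 on the plus strand, and TET2 is chr4:105145625-105145874 on the plus strand.
DNMT3A: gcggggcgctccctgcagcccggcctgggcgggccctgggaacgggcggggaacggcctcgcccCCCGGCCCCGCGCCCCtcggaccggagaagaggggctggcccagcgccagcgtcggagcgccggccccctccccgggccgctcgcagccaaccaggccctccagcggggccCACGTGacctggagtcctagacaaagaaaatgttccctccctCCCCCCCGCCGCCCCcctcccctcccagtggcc
TET3: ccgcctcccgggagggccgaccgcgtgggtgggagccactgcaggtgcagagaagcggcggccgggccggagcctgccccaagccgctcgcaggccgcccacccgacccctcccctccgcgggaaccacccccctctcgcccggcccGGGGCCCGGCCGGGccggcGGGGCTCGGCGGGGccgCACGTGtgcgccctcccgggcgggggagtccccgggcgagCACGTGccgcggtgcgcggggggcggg
TET2: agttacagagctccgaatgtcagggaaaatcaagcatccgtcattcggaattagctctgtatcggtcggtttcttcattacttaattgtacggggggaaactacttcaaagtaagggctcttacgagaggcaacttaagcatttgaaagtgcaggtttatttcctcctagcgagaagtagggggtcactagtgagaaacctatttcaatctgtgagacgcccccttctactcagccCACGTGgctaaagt
The DNMT3A stretch holds 1 E-box, which begins 75 bp before the start, and its 2 marked PLAG1 matches lie on either side of it, while another match crosses the 3′ edge of the stretch and is left in lower case. The TET3 stretch holds 2 E-boxes and 2 PLAG1 matches upstream of both, and none of the marked motifs overlap. The TET2 stretch has its E-box 14 bp before the start and no PLAG1 match. Over all 35116 listed windows of 300 bases, which run from 250 bases before a start to 50 after it, CACGTG was present in 7.26% and the bipartite motif in 32.2%. In windows that held a co-bound summit, a term defined in the next paragraph, CACGTG was present in 84.1% and the bipartite motif in 51.0%.

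Peaks seen in both clones, by an overlap of 1 bp or more within a factor, were called reproducible and carry the coordinates of clone 4. Reproducible PLAG1-S peaks were found at 6 of the 8 genes, namely DNMT3A, DNMT3B, DNMT1, UHRF1, TET1 and TET3, and not at DNMT3L or TET2. This compares with 52.0% of all protein-coding genes, and with 57.9% of the 10270 coding genes whose length falls in the range of the 8. Reproducible USF2 peaks were found at 3 of the 8, DNMT3A, TET1 and TET3, against 10.3% of coding genes and 11.2% of those in the length range. At the same 3 genes a reproducible PLAG1-S peak lay within 100 bp of a reproducible USF2 peak, termed co-bound here, against 9.98% of coding genes and 10.9% of those in the length range. Of the 8 genes, 7 are longer than the median coding gene of 24.1 kb, and how far gene length bears on these counts was not tested. When only summits within 1 kb of a listed start were counted, in the 7 genes with a start in the reference used here, PLAG1-S was found at 5, against 41.3% of genes with a start. USF2 was then found at 2, against 7.55%, and co-binding at 2, DNMT3A and TET3, against 7.36%. With 8 genes and 2 libraries per factor these shares are given as a description, with no test.

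**Figure D1:**
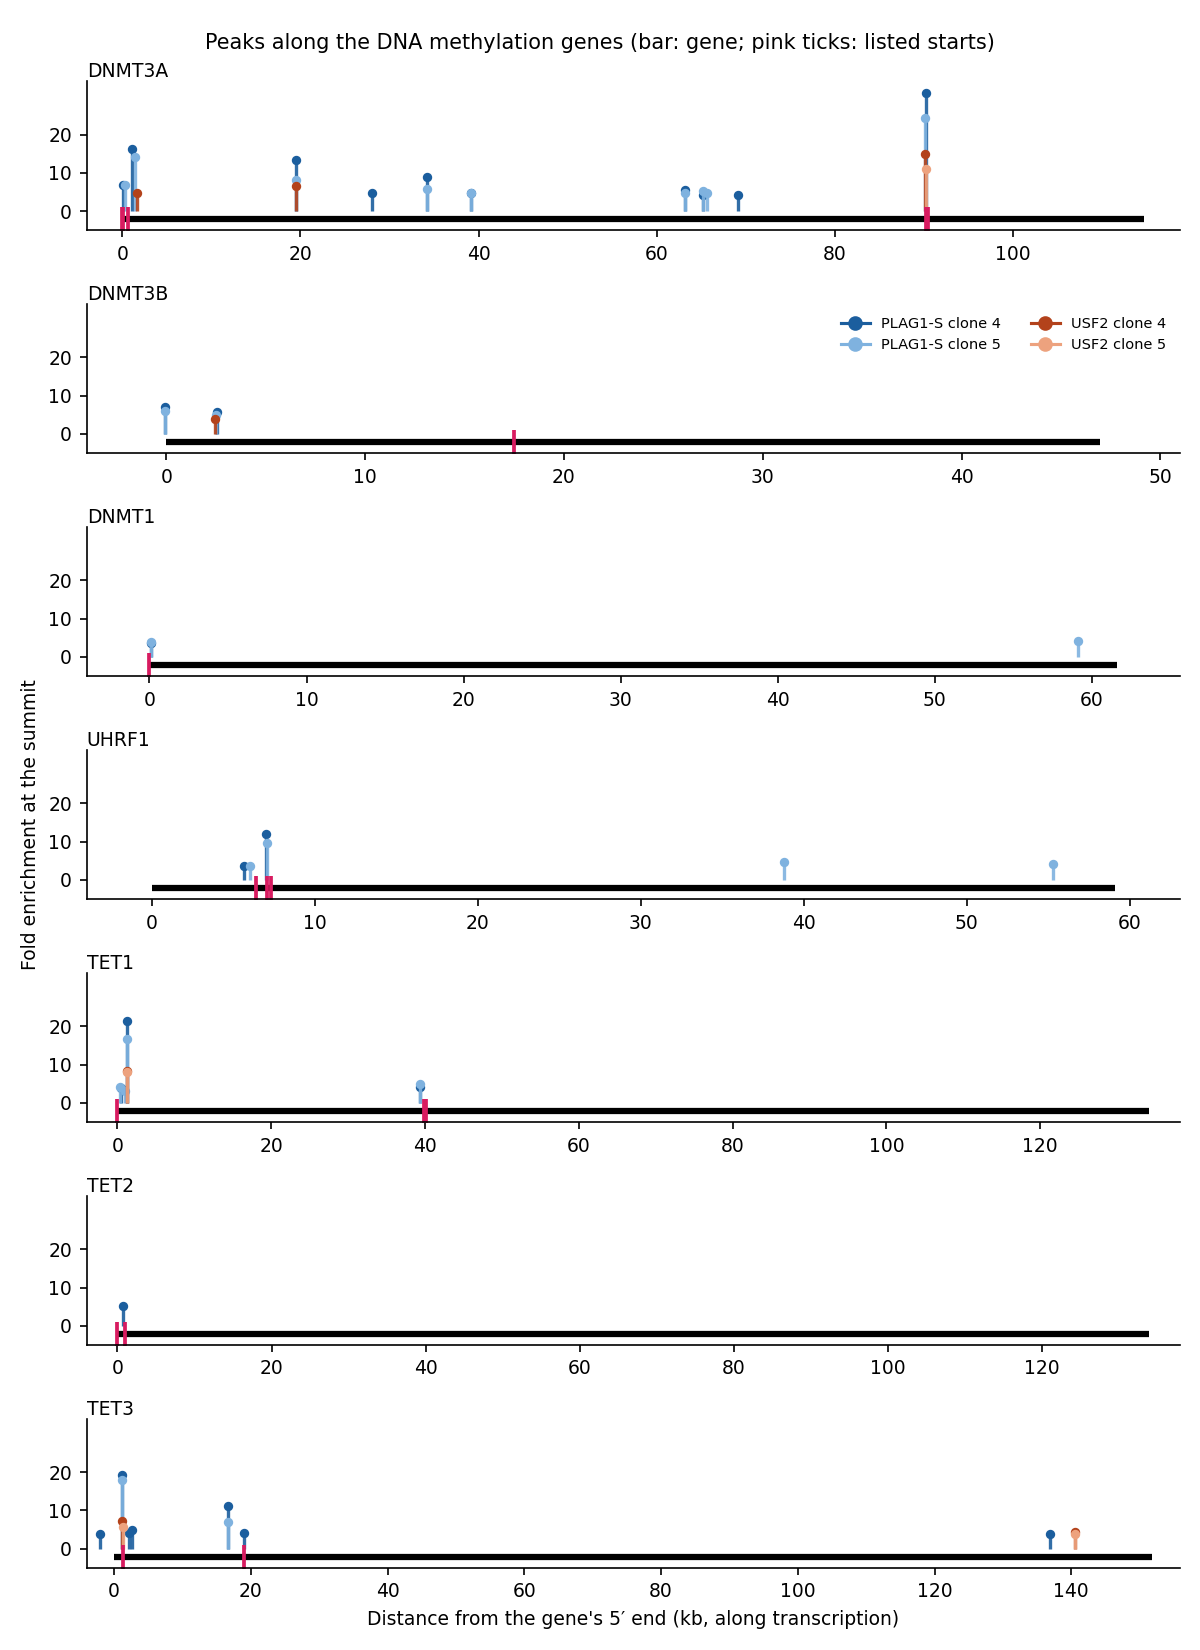
Peaks of the 4 libraries along 7 genes, drawn from each gene's 5′ end in kb along transcription, with the height giving the fold enrichment at the summit (no unit); black bars are gene bodies and pink ticks listed starts. The tallest peaks stand at the internal start of DNMT3A (30.8 in PLAG1-S clone 4), 1.25 kb into TET1 (21.3) and at the first listed start of TET3 (19.3), and TET2 shows 1 peak (5.27).

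Fold enrichment is the ratio of fragments over the summit to the local background, with a small constant added to both, as the authors deposited it. The intervals given here are 95% Poisson intervals that cover counting error alone. The internal start of DNMT3A, the start of a shorter isoform of this de novo methyltransferase, had the highest fold among the 8 genes in each library. The PLAG1-S peak there (chr2:25251661-25253093) had a fold of 30.8 (25.5 to 36.9) in clone 4 and 24.4 (19.6 to 30.1) in clone 5. USF2 reached 15 (11.4 to 19.4) in clone 4 and 11.1 (8.01 to 15) in clone 5. In each factor clone 4 was the higher and the intervals of the clones overlapped. These peaks stood at rank 322 by fold in the clone 4 PLAG1-S list and 396 in clone 5, and at rank 293 and 294 in the USF2 lists, that is within the top 1.32% of peaks for PLAG1-S and the top 6.73% for USF2. The 4 summits fell within 48 bp of each other, and the clone 4 PLAG1-S summit lay 88 bp before the nearest listed start. In clone 4 the summits of the factors were 45 bp apart here, 10 bp at the TET3 and 5 bp at the TET1 co-bound peak. The median over all co-bound peaks was 15 bp. Fragments gave in part another order. The DNMT3A summit had 116 and 87 PLAG1-S fragments in clones 4 and 5, and the TET1 co-bound summit 120 and 92. USF2 fragments were 56 and 40 at DNMT3A, and 47 and 43 at TET1. The PLAG1-S backgrounds were 2.8 and 2.6 at DNMT3A, and 4.69 and 4.58 at TET1. The USF2 backgrounds were 2.8 and 2.69 at DNMT3A, and 4.69 and 4.51 at TET1. To the digits given, those at DNMT3A equal the lowest background of each list, so the fold there is taken over that floor.

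The E-box in the DNMT3A stretch shown above (chr2:25252385-25252390) had its nearest edge 13 and 38 bp from the PLAG1-S summits of clones 4 and 5, and 58 and 10 bp from the USF2 summits. The nearest bipartite PLAG1 match was 55 bp from the clone 4 and 58 bp from the clone 5 PLAG1-S summit, and it was a different match in each. These are positions of letters and not tests of which site was bound.

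TET3, one of the 3 dioxygenases, had its co-bound peak at the first listed start (chr2:73984541-73985417). PLAG1-S had a fold of 19.3 (15.7 to 23.4) in clone 4 and 18.0 (14.5 to 22.0) in clone 5, and USF2 7.16 (5.14 to 9.72) and 5.76 (3.86 to 8.28). The clones differed by less than the counting intervals in both factors. The 4 summits fell within 20 bp, 56 bp before the start for PLAG1-S in clone 4, and lay between 6 and 26 bp from the E-box at chr2:73984843-73984848 and between 9 and 29 bp from that at chr2:73984883-73984888. The 2 bipartite PLAG1 matches lay 34 and 15 bp from the clone 4 PLAG1-S summit, compared with 6 and 29 bp for the E-boxes.

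TET1, a dioxygenase with a CXXC zinc finger that binds CpG-rich DNA, had its co-bound peak 1248 bp past its first listed start, inside the gene body (chr10:68561342-68561854). PLAG1-S had a fold of 21.3 (17.7 to 25.4) in clone 4 and 16.7 (13.5 to 20.4) in clone 5, and USF2 8.43 (6.24 to 11.2) and 7.99 (5.83 to 10.7). The 4 summits fell within 19 bp, and the intervals of the clones overlapped in both factors. This peak is the reason that TET1 counts as co-bound by gene body and not within 1 kb of a start. It lies outside the listed windows, and no sequence was read there.

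**Figure D2:**
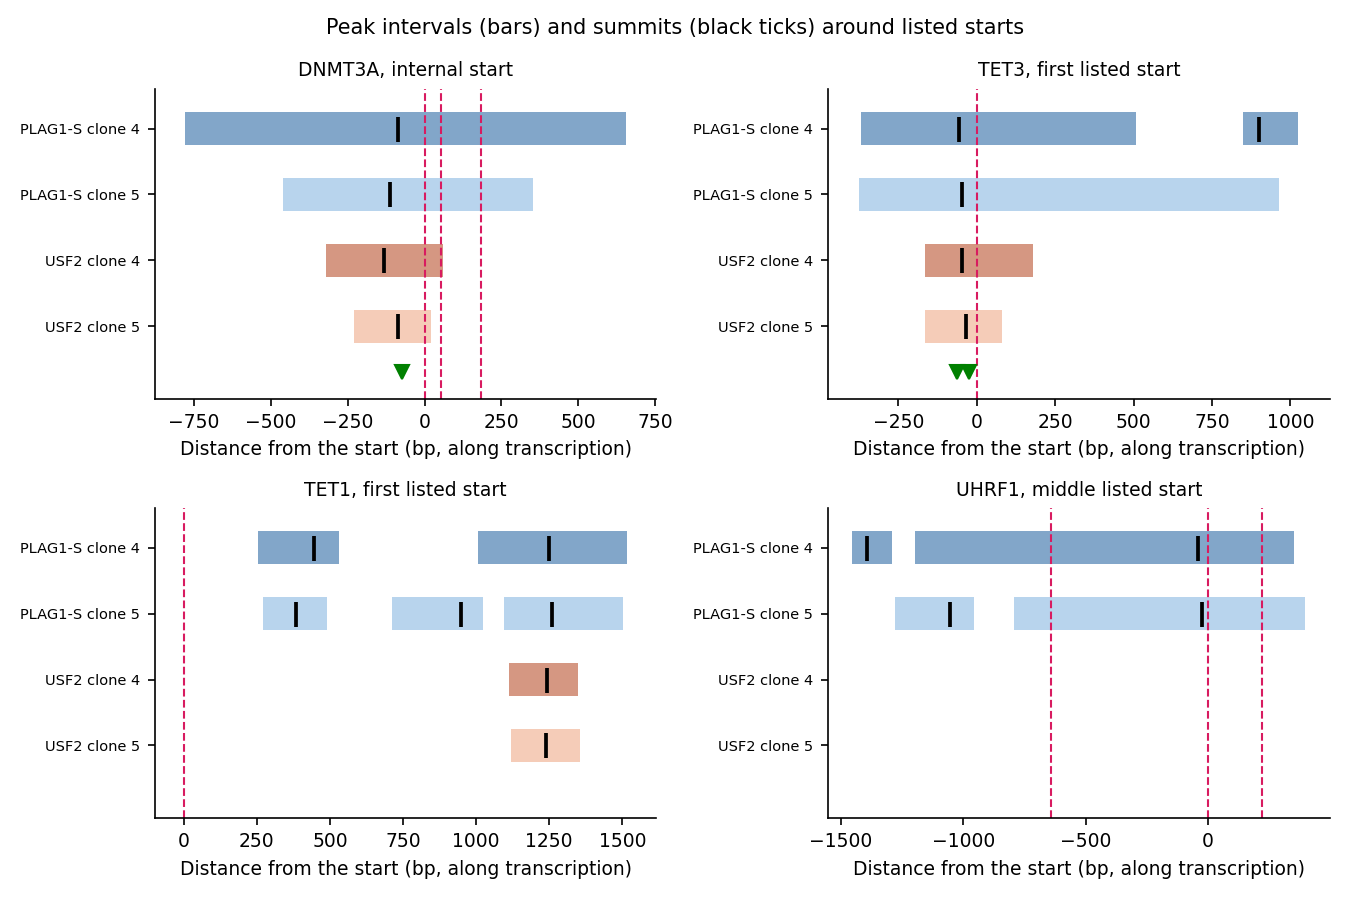
Peak intervals (bars) and summits (black ticks) of the 4 libraries against the distance in bp from a listed start along transcription, at DNMT3A, TET3, TET1 and UHRF1. Dashed lines are listed starts and green triangles CACGTG, searched in the listed windows only. The TET1 co-bound peak lies outside them, so the lack of a triangle there shows nothing. The 4 summits fall within 48 bp at DNMT3A, 20 bp at TET3 and 19 bp at TET1, and at UHRF1 no USF2 peak is drawn because none was called.

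The remaining reproducible sites of DNMT3A carried PLAG1-S, with USF2 at some in clone 4 only. DNMT3A held 8 reproducible PLAG1-S peaks in all, and 0.944% of coding genes in the length range held at least as many. That range runs from 15.6 to 152 kb and DNMT3A is 115 kb long. How far length bears on this share was not tested, and no share was computed for genes of its own length. Near its outer starts, a peak 399 bp past a start (chr2:25340581-25341890) had PLAG1-S folds of 16.2 in clone 4 and 14.2 in clone 5, with a USF2 peak of 4.73 in clone 4 only whose summit lay 579 bp from that of PLAG1-S. The adjoining peak at the outermost start (chr2:25341953-25342795) had folds of 6.85 and 6.67 and no USF2 peak. At 19.5 kb from the outermost start (chr2:25322939-25323409) the PLAG1-S folds were 13.4 and 8.07, and USF2 had a peak of 6.53 in clone 4, 31 bp from the PLAG1-S summit, and none in clone 5. The 4 other sites, between the outer and the internal starts, had clone 4 folds of 4.22 to 8.96 and clone 5 folds of 4.72 to 5.83, with no USF2 peak. Thus a single site of 8 met the co-binding rule, and it had the highest PLAG1-S fold of the gene in both clones.

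DNMT3B had 2 reproducible PLAG1-S peaks. At the first, which overlaps the 5′ end of the gene body and has its summit 69 bp outside it (chr20:32762041-32762799), the folds were 7.1 in clone 4 and 6.08 in clone 5. At the other, 2.56 kb into the gene (chr20:32764793-32765033), they were 5.8 and 4.95, with a USF2 peak of 3.85 in clone 4 alone. The only start of DNMT3B listed in the reference used here lies 17.5 kb into the gene, so neither peak counted as lying at a start. DNMT3L had single peaks that did not recur. These were a PLAG1-S peak of 3.67 in clone 4 (chr21:44249423-44249581), a PLAG1-S peak of 4.22 in clone 5 at another position (chr21:44263438-44263636), and a USF2 peak of 4.47 in clone 4 (chr21:44248185-44248369), 1054 bp from the nearest PLAG1-S peak of that clone.

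The maintenance genes DNMT1 and UHRF1 carried PLAG1-S at a start and no USF2 peak in either clone. At DNMT1 the summit lay 111 bp past the start (chr19:10194809-10195044), with folds of 3.57 (2.22 to 5.47) in clone 4 and 3.97 (2.5 to 6.03) in clone 5. These rested on 19 and 20 fragments, and the clone 4 value is the lowest among the 18 reproducible sites. At UHRF1 the peak (chr19:4908947-4910495) spanned all 3 listed starts, with its summit 42 bp before the middle one, and had folds of 12.1 (9.34 to 15.4) and 9.67 (7.18 to 12.8). Neither DNMT1 nor UHRF1 had CACGTG in a listed window. The nearest co-bound peak to UHRF1 lay 6412 bp beyond the gene body, with a clone 4 PLAG1-S fold of 18.5. That to DNMT3B lay 10215 bp beyond, with a fold of 22.7. Both were outside the 3 kb limit and were not counted.

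At TET2, in contrast to TET1 and TET3, no reproducible peak of either factor was found. A single PLAG1-S peak, in clone 4 (chr4:105146488-105146650), had a fold of 5.27 (3.32 to 8.0) from 20 fragments, 305 bp before the second of 2 listed starts. No peak was called in the other 3 libraries, and the nearest reproducible PLAG1-S peak was 193703 bp from the gene body. The absence of a call means that no summit passed the authors' threshold, and no list held a peak of fewer than 11 fragments. The E-box of TET2 in the sequence above was therefore not under a peak. Of the 2548 windows with CACGTG, 1762 (69.2%) held no reproducible USF2 summit, a looser measure than an E-box under no peak at all. Of the 923 windows with such a summit 85.2% held CACGTG, and of those without one 5.15% did.

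The other TET1 and TET3 sites were weaker. TET1 had PLAG1-S peaks at 446 bp past the first start (3.87 in clone 4 and 4.11 in clone 5) and 610 bp before the second (4.15 and 4.89). TET3 had a PLAG1-S site 2356 bp before its second listed start (chr2:74000186-74000493), at 11.2 in clone 4 and 7.07 in clone 5. A further clone 4 peak of 4.19 (chr2:73985760-73985936) counted as reproducible because it touched the wide clone 5 peak that also matched the co-bound site, so it has no clone 5 value of its own. TET3 also held the only reproducible USF2 peak among the 8 genes away from PLAG1-S, near its 3′ end (chr2:74124100-74124316), at 4.29 in clone 4 and 3.72 in clone 5. The nearest PLAG1-S peak of the same clone was 3525 and 23411 bp away.

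**Figure D3:**
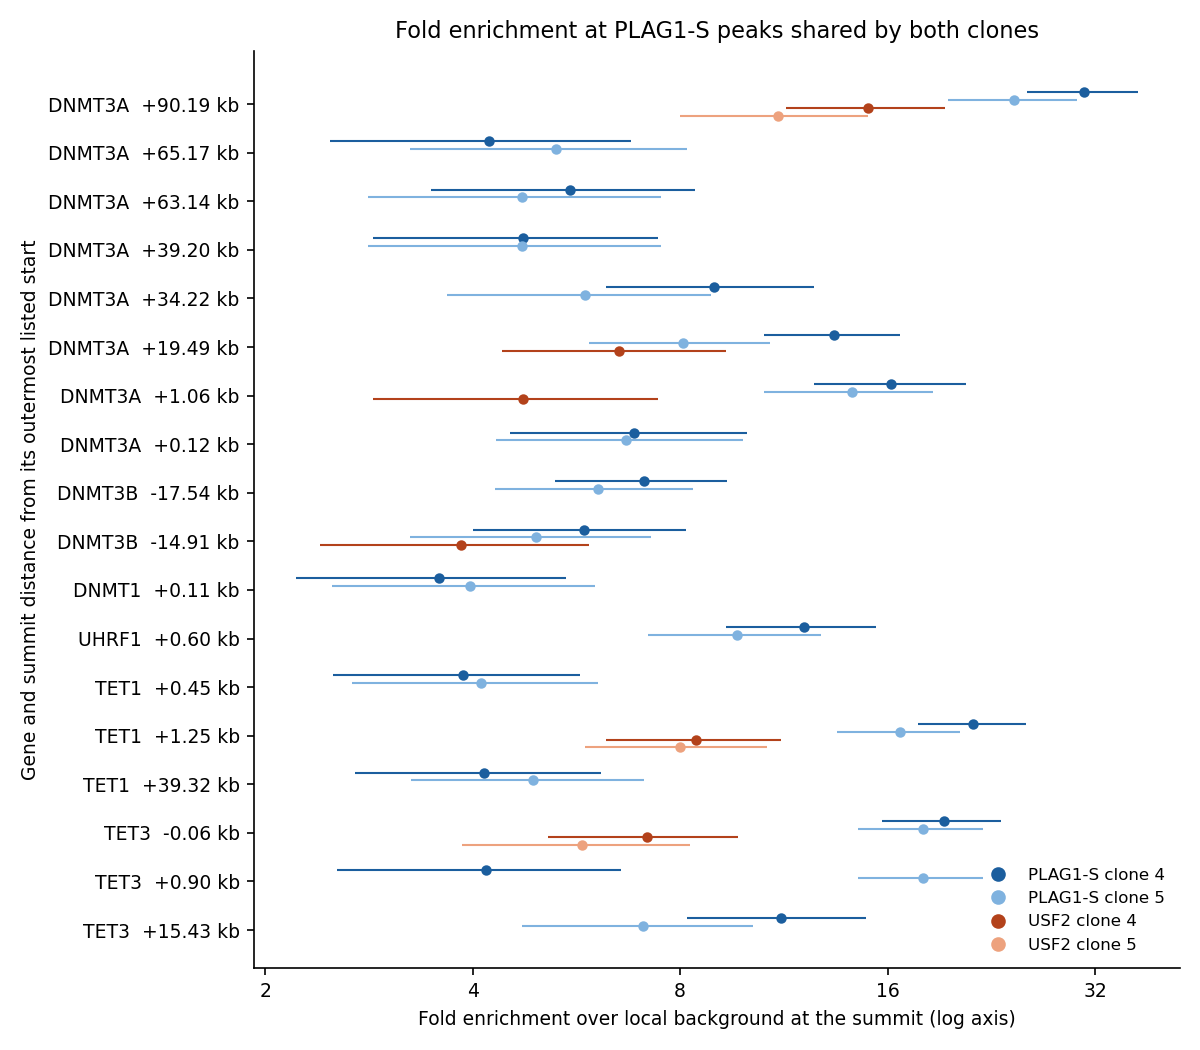
Fold enrichment over the local background (log axis) at the 18 reproducible PLAG1-S sites, labelled by gene and by the distance in kb from its outermost listed start; points are single libraries and lines are 95% Poisson intervals. USF2 points of both clones appear at 3 sites, 1 each in DNMT3A, TET1 and TET3, and USF2 points of clone 4 alone at 3 more, while the middle TET3 row repeats the clone 5 peak of the row above it.

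The 2 clones gave similar values at these sites. One TET3 site without a clone 5 peak of its own aside, PLAG1-S was lower in clone 5 at 13 of 17 sites and higher at 4, with a median ratio of 0.856 (range 0.603 to 1.25). The Poisson intervals of the clones overlapped at all 17. Over all 21469 reproducible PLAG1-S peaks the median ratio was 0.885, so that the lower folds of clone 5 were not limited to these genes. Summits of the clones were a median of 16 bp apart, compared with 32 bp over all reproducible PLAG1-S peaks, and within 100 bp at 15 of 17 sites. PLAG1-S peaks in a single clone were weak: the 9 of clone 4 and the 5 of clone 5 had folds of 3.67 to 5.27 and 13 to 21 fragments. Of the clone 4 PLAG1-S peaks at the 8 genes 66.7% were found in clone 5, against 57.1% of all. For USF2, 8 of 12 peaks were found in the other clone and 9 of 12 had PLAG1-S of the same clone within 100 bp, against 35.3% and 60.7% of the 13707 USF2 peaks of both lists. These counts pool the lists of the clones, so a site shared by both is counted once in each and the 12 are not separate sites. The USF2 peaks in a single clone were all of clone 4, the highest at 6.53 with 28 fragments in DNMT3A.

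Against the other peaks of the series, the sites of the 8 genes had folds around the middle of the range. Their median clone 4 fold was 6.97, compared with 6.39 over all reproducible PLAG1-S peaks, and 10 of 18 stood above that median. The 3 co-bound sites, at 19.3 to 30.8, all stood above the median of 18.9 over the 2108 co-bound peaks, and the 15 others ran from 3.57 to 16.2. Co-bound peaks thus had the higher PLAG1-S folds here, and in the series by median. Sites with a USF2 peak in clone 4 alone had clone 4 PLAG1-S folds of 5.8 to 16.2. How far a lower USF2 fold kept other sites from being called was not tested.

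**Figure D4:**
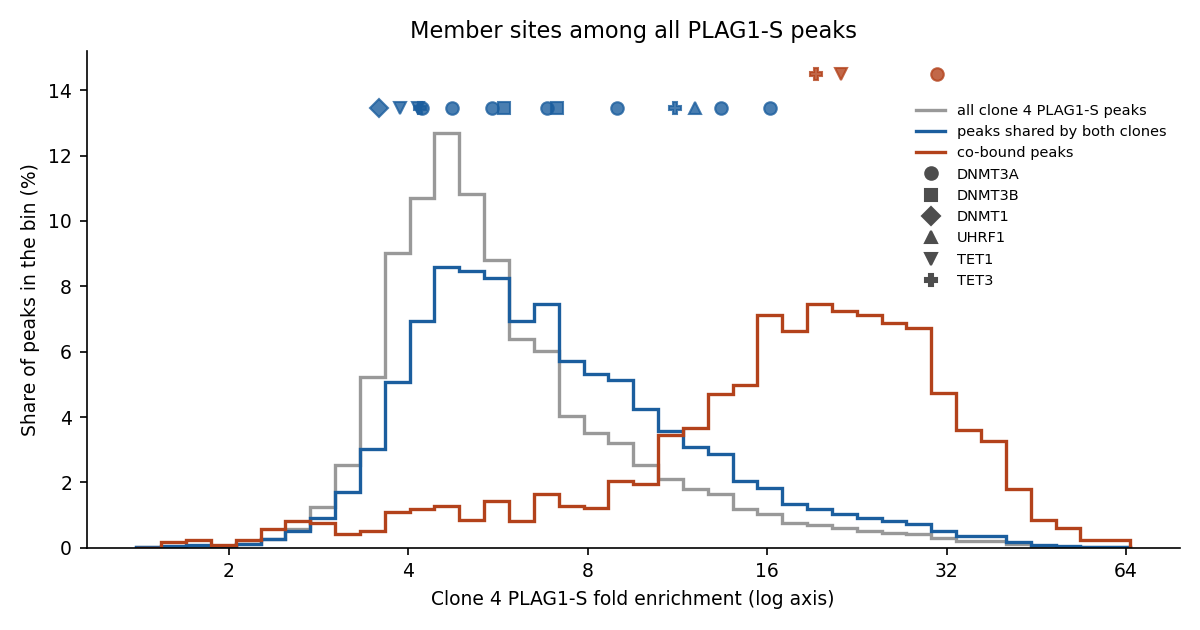
Share of peaks (%) by clone 4 PLAG1-S fold (log axis) for all clone 4 peaks, peaks shared by both clones and co-bound peaks, with the 18 sites of 6 genes as symbols above. The 3 co-bound sites (upper row, 19.3 to 30.8) lie to the right of the 15 others (lower row, 3.57 to 16.2).

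The listed windows of the 7 genes with a start were also read for motifs. CACGTG was present in 3 of them, DNMT3A, TET2 and TET3, and the bipartite PLAG1 motif in 3, DNMT3A, UHRF1 and TET3. DNMT3A, which has 6 listed starts, and TET3 alone held both, and the share of all genes holding both was not computed. By gene, with any listed window counted, CACGTG was present in 10.9% and the bipartite motif in 45.4% of the 15843 coding genes with a start. By window, CACGTG was present in 4 and the bipartite motif in 7 of the 18 windows of these genes, some of which overlap. The bipartite motif was in 32.2% of all windows, 55.2% with a reproducible PLAG1-S summit and 51.0% with a co-bound summit. At UHRF1 the match lay 650 and 666 bp from the PLAG1-S summits, inside the wide peak. The looser E-box CANNTG, which includes CACGTG, was present in 6 of 7 genes and in 68.7% of all windows. The core GGGGC or GAGGC alone, which the bipartite motif includes, was present in 7 of 7 and in 84.9%. The windows at the internal start of DNMT3A that held all 4 summits were 75% and 78.3% G or C, and that of TET3 82.7%, compared with a median of 58.7% over all windows and 69.0% over windows with a co-bound summit. The TET2 window with the E-box was 47.7%.

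Further genes of the pathway were taken as a list of 32 in 5 roles. PLAG1-S was reproducible at 23 of them, USF2 at 7, and co-binding was found at 7, against the 52.0%, 10.3% and 9.98% of all protein-coding genes given above. The counts by role rest on 4 to 10 genes each and are read as a description beside the same shares. Among 10 genes of the base excision steps that follow TET oxidation, 7 had PLAG1-S and 4 were co-bound. These were TDG, the glycosylase that removes oxidized methylcytosine, SMUG1, another glycosylase, APEX1, the endonuclease that cuts the abasic site, and LIG3, a ligase. APEX1 had the highest clone 4 PLAG1-S fold of the list, 36.5, and 29.2 in clone 5, with USF2 at 19.6 and 15.7. TDG had 21.8 and 15.8 with USF2 at 9.54 and 8.08, and SMUG1 had 21.6 and 18.9 with USF2 at 9.21 and 7.98. LIG3 had 21.0 and 14.6 with USF2 at 8.55 and 5.33.

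Of 4 genes of methyl donor supply all had PLAG1-S and 1 was co-bound, MAT2A, which makes S-adenosylmethionine, at 9.41 and 8.95 with USF2 at 5.91 and 4.4. The highest clone 4 PLAG1-S fold of this role was that of AHCY, which hydrolyzes S-adenosylhomocysteine, at 12.7 and 12.3, with a USF2 peak of 3.83 in clone 4 alone. Among 7 genes grouped as readers of methylated DNA 5 had PLAG1-S. Co-binding was found at 1, ZBTB38, a zinc finger protein, at 9.95 and 6.37 with USF2 at 6.27 and 5.17. The highest clone 4 PLAG1-S fold of this group was that of MBD3, a subunit of the NuRD complex, at 12.4 and 16.6. MBD3 had a USF2 peak of 4.76 in clone 4 alone, and the grouping does not imply that it binds methylated CpG itself. Among 5 TET partners and suppliers of cofactor 2 had PLAG1-S and 1 was co-bound, CXXC5, a CXXC zinc finger protein, at 30.0 and 21.0 with USF2 at 9.43 and 6.32. The 6 partners of maintenance methylation had reproducible PLAG1-S at 5 and reproducible USF2 at 0, and with 10.3% of coding genes carrying USF2 nothing is read from 0 of 6. The highest clone 4 PLAG1-S fold there was that of PCNA, the replication clamp, at 8.41 and 5.74 in clone 5, where CDCA7, a partner of the remodeler HELLS, was higher at 6.88 (6.95 in clone 4). CDCA7 was named after its values were seen. Whether the roles differ was not tested.

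**Figure D5:**
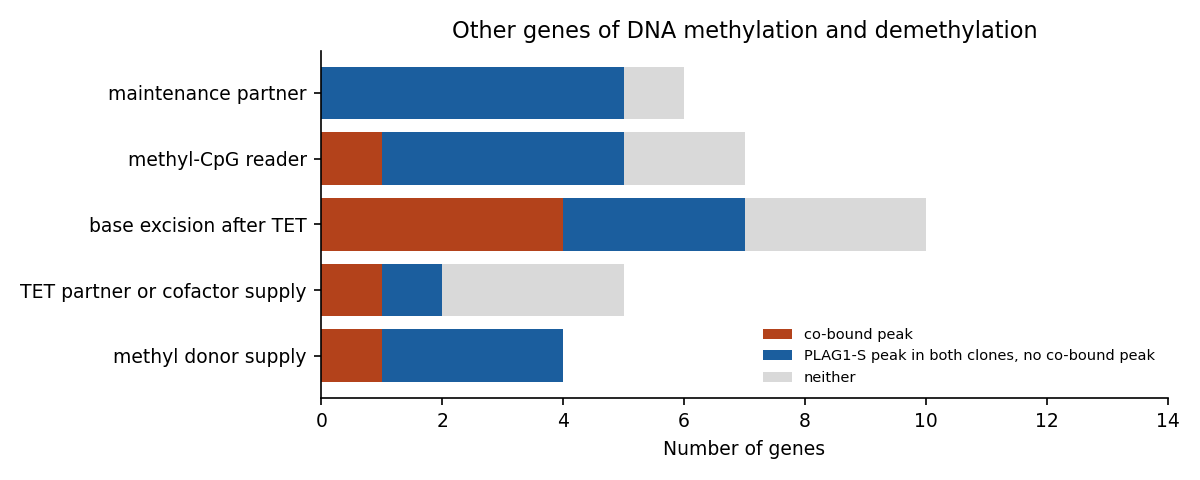
Number of genes in each of 5 roles of DNA methylation and demethylation that had a co-bound peak, a PLAG1-S peak in both clones without one, or neither. Co-bound genes number 4 of 10 in base excision after TET and 0 of 6 among the maintenance partners, beside 9.98% of all protein-coding genes.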

How the data were processed

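The authors aligned single-end reads of 50 bp (HISAT2 2.0.4 and MACS2 are among the tools in the submitters' processing notes) and called peaks in each immunoprecipitated library against the merged inputs, on hg38. The labels give 42.5 M reads per immunoprecipitation and 55 M per input, and the inputs themselves were not analysed here. The deposited fold is the ratio of summit pileup to local background, the deposited −log10 p and −log10 q are those of a Poisson model at the summit, and the score deposited by the authors, which derives from the q-value, was not used. The lists ended at q-values of 0.0099 and 0.00974 for PLAG1-S (clones 4 and 5) and 0.0494 and 0.0477 for USF2, so USF2 calls reach weaker peaks, and folds were not compared between antibodies.

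Fragments over each summit and the background were recovered from the fold and −log10 p where the recomputed value agreed to within 0.001, which held for at least 99.93% of peaks per library and for 63 of 63 peaks at the 8 genes. Median fragments per summit were 20.5 to 24, and the background at the 8 genes was 2.6 to 5.9 fragments. Intervals are exact 95% Poisson intervals with the background held fixed. The steps were tested on simulated data. Coordinates are 1-based, reproducible peaks carry those of clone 4, and clone 5 partners are the peaks sharing most bases. Gene bodies, starts and windows are those of RefSeq GRCh38.p14. DNMT3L had no start in the table used. Several starts may be listed for a gene.

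The members and lists were chosen with earlier results of these data known. The named genes are all 8 members, each with its reproducible peaks or, failing one, its strongest peak, and of the other 32 genes those with a co-bound peak and the strongest of each role. A further gene of that list is not reported here and is left out of its counts. The counts within 1 kb of a start, the length range and the count of genes with as many peaks as DNMT3A were added after seeing the data. By the labels, the libraries of a clone came from the same cell line, which pairs the factors within it. With 2 libraries per factor no test between groups was run. Alternatives changed the q-value limit, the overlap, the window, the distance between factors, the motif and the clones used. Python 3.11.15, numpy 2.4.6, pandas 2.3.3, scipy 1.17.1 and matplotlib 3.10.9 were used.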

Additional observations from a re-analysis of the deposited data

How the results depend on the processing

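Most counts moved by at most 1.5 times, and those of USF2 depended most on how the clones were combined. The counts within 1 kb of a start apart, no share over all protein-coding genes was computed for the alternative peak counts. The shares given above belong to the main setting, so these counts are not to be read against them. The number of the 8 genes with a USF2 peak rose from 3 to 5 with a peak of either clone, and leaving out each clone in turn gave 3 to 5, 5 being clone 4 alone. It gave 7 to 8 genes for PLAG1-S and 3 to 4 for co-binding. Among the 32 other genes USF2 was found at 4 and co-binding at 4 with a −log10 q of at least 10, and at 15 and 14 with a peak of either clone. Leaving out each clone gave 23 to 26 for PLAG1-S, 9 to 13 for USF2 and 8 to 13 for co-binding, 13 being clone 4 alone in both. With the replicate block, in which co-binding was counted within each clone, the mean was 3.5 of the 8 genes (4 in clone 4 and 3 in clone 5) and 10.5 of the 32 (13 and 8). The looser E-box raised the genes with a match from 3 to 6, and the PLAG1 core alone from 3 to 7. With all 59679 RefSeq genes as background the share with PLAG1-S was 26.8%. A window of 10 kb added UHRF1 to the co-bound genes. Summits within 1 kb of a start, an alternative chosen after seeing the data, gave 5, 2 and 2 genes. The depth of each peak, 11 fragments or more, limits what a missing peak can show.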
